A study of Mus musculus with 4 samples.

Results

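The interleukin-6 and interleukin-12 family, represented by 10 cytokine and receptor genes, was followed in mouse peritoneal cells of 2 genotypes before and after lipopolysaccharide (LPS), the bacterial cell wall component that activates Toll-like receptor 4. The genes were chosen by name: Il6, Il12a, Il12b, Il23a, Il27, Ebi3, Lif, Osm, Il6ra and Il6st, and a probe belonged to a gene when its RefSeq accession mapped to that gene. All 10 genes were found, out of 22911 genes with a probe, through 14 of 56605 probes, 6 genes having 1 probe and 4 genes 2 probes. The 4 groups were LysM-St18flox cells after 3 h of LPS, LysM-St18flox cells at 0 h, wild-type cells after 3 h of LPS and wild-type cells at 0 h, with 1 one-colour array each. Below, "after LPS" means 3 h and "before it" 0 h. In every group the cells came from the peritoneal lavage of mice given thioglycollate, an irritant that recruits leukocytes. The cell type is labelled peritoneal macrophage, and the titles call the samples PEC. The source of each sample is worded as a single mouse. LysM is the lysozyme gene, a locus widely used for Cre expression in myeloid cells, neutrophils included. The product of St18 is a transcription factor with zinc fingers. Neither the labels nor the file headers give the LPS dose, the strain, age and sex of the mice, or whether the wild-type mice carried Cre or the floxed allele.

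With 1 array a group there was no replicate of any group, so no test was made and no p-value is given. A level is the log2 processed signal minus the 75th percentile of that array, and a difference is called when it is at least 2-fold, a log2 difference of 1. The only measured error is that between spots of one probe on an array, whose standard deviation for a difference between single spots was 0.06 (log2), and mice, cultures and labelling add to it by an unknown amount. That value comes from the median over probes printed 10 times and well above background, so it may not hold for dim probes. A gene with several probes is given by its brightest probe first and then by the other. Where a probe was not well above background on 1 side, the difference is a bound, written "at least N-fold", taken against the higher of its own value and the lowest level among probes well above background on that array. That lowest level was -3.64 on both 0 h arrays, -4.20 in LysM-St18flox cells at 3 h and -3.86 in wild-type cells at 3 h.

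The family is built from shared parts. IL-6, LIF and oncostatin M are single-chain ligands that signal through the receptor chain gp130. IL-12, IL-23 and IL-27 are heterodimers of a cytokine-like chain and a receptor-like chain. The p40 chain of Il12b pairs with the p35 chain of Il12a in IL-12 and with the p19 chain of Il23a in IL-23, and the EBI3 chain pairs with the p28 chain of Il27 in IL-27. In macrophages Toll-like receptor signals induce several of these ligands through NF-kB and other factors, and the receptors pass their signal to JAK kinases and STAT factors.

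Because most of the ligand genes were higher after LPS and the receptor gene Il6ra was lower, upstream sequences of members of both kinds are shown for comparison. RefSeq promoter entries of assembly GRCm38.p6 covered 7 of the 10 genes in 8 windows, Il12a having 2 start sites. Each sequence below runs 5′ to 3′ over the 250 bases before the start site on the strand of the gene, and capitals mark matches to the NF-kB consensus, a C/EBP motif, an AP-1 motif or the cAMP response element (CRE).
Il6 (chr5:30012864-30013113, plus strand): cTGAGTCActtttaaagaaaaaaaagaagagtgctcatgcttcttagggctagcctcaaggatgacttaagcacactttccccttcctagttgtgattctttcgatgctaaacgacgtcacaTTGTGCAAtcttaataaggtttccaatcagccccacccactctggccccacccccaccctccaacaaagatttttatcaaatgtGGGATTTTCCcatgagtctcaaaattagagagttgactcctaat
Lif (chr11:4257318-4257567, plus strand): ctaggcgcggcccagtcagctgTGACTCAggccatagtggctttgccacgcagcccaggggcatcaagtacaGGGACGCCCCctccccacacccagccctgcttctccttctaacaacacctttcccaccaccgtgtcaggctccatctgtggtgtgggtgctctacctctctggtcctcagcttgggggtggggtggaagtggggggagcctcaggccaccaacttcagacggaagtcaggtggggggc
Ebi3 (chr17:55952373-55952622, plus strand): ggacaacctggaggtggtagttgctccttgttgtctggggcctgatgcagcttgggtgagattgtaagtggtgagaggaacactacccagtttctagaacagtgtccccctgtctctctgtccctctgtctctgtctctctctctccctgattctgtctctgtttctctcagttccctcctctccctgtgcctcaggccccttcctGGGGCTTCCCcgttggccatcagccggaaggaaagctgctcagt
Il12b (chr11:44399813-44400062, plus strand): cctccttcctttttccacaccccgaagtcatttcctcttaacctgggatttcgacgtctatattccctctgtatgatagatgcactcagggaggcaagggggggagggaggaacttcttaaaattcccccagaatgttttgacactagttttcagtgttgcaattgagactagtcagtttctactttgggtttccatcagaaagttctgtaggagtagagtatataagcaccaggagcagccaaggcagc
Il6ra (chr3:89913197-89913446, minus strand): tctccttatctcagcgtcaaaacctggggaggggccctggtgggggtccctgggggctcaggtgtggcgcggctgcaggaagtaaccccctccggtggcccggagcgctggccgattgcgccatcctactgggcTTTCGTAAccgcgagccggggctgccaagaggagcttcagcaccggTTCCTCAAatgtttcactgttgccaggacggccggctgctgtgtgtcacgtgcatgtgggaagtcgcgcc
The NF-kB consensus of 10 letters was matched in the windows of Il6, Lif and Ebi3, and in 7.25% of all 32851 promoter windows. Its match lay at positions -44 to -35 from the start site in both Il6 (GGGATTTTCC) and Ebi3 (GGGGCTTCCC), and at -178 to -169 in Lif. The AP-1 letters TGANTCA were present in Il6 (-249 to -243) and Lif (-228 to -222) and in 6.75% of all windows. The C/EBP letters TTNNGNAA occurred once in Il6 (-128 to -121), in 2 places in Il6ra, and in 36.8% of all windows. The windows of Il12b, Il12a and Il6st held none of these 3 motifs. The letters GAGGAA, as in sites of PU.1, were found in Il12b in 2 places and in Ebi3 and Il6ra (there sharing bases with a C/EBP match), against 23.3% of all windows. The CRE (in 1.55% of all windows), the ISRE (2.98%) and the letters TATAAA (12.4%) had no match in any of the 8 windows. Both strands were searched, and a match is a description of letters only.

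The genotype labels were checked first on St18. Its brighter probe had levels of -4.28 at 3 h and -4.05 at 0 h in LysM-St18flox cells, neither well above background, against -1.12 at 3 h and -0.81 at 0 h in wild-type cells. Against wild-type cells, LysM-St18flox cells were thus lower by at least 8.48-fold after LPS and by at least 7.12-fold before it. The dimmer St18 probe was near background on all 4 arrays and is not used, and the labels do not say whether the brighter probe lies in the floxed part of the gene. All 12 macrophage markers were well above background on all 4 arrays. The summed level of these markers, in multiples of the 75th percentile, was 1080 at 3 h and 888 at 0 h in LysM-St18flox cells, and 1166 at 3 h and 1009 at 0 h in wild-type cells. Markers of other cells were present too: B cell markers were well above background for 10 of 10 genes on both LysM-St18flox arrays and 8 of 10 on both wild-type arrays. Between 52.2% and 55.6% of the spots of an array were well above background.

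After LPS, 7 of the 10 genes were higher by 2-fold or more and 1 was lower in each genotype, bounds included. The 7 include Osm in LysM-St18flox cells and Il23a in wild-type cells. Il23a in LysM-St18flox cells had a bound just under 2-fold, so a larger difference is possible there, and it made the count 8 under 4 of 8 other ways of processing. With normexp correction the wild-type count was 6. Of all genes measured or bounded, the higher calls made up 9.81% and the lower calls 9.79% in LysM-St18flox cells. In wild-type cells they made up 11.0% and 12.4%. Without bounds, 4 of 6 measured members were higher and 1 lower in LysM-St18flox cells, against 8.59% and 8.11% of 12976 measured genes. In wild-type cells 2 of 5 measured members were higher and 1 lower, against 9.46% and 10.9% of 12589 measured genes. The median difference was 1.41 over the 6 measured members in LysM-St18flox cells and 0.70 over the 5 in wild-type cells, which lack Il12a. Those medians leave out genes with bounds such as Il6 and Il12b and are not comparable between genotypes: without a background filter they were 2.54 in LysM-St18flox cells and 3.14 in wild-type cells, and with the mean of probes the wild-type median was 0.04. That of all measured genes was -0.05 in LysM-St18flox cells and -0.07 in wild-type cells. Median scaling put the all-gene median at 0.14 in LysM-St18flox cells and made 65.4% of the calls higher ones, against 51.4% here. In these bulk samples, fewer cells of a type and less RNA per cell cannot be told apart.

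**Figure D1:**
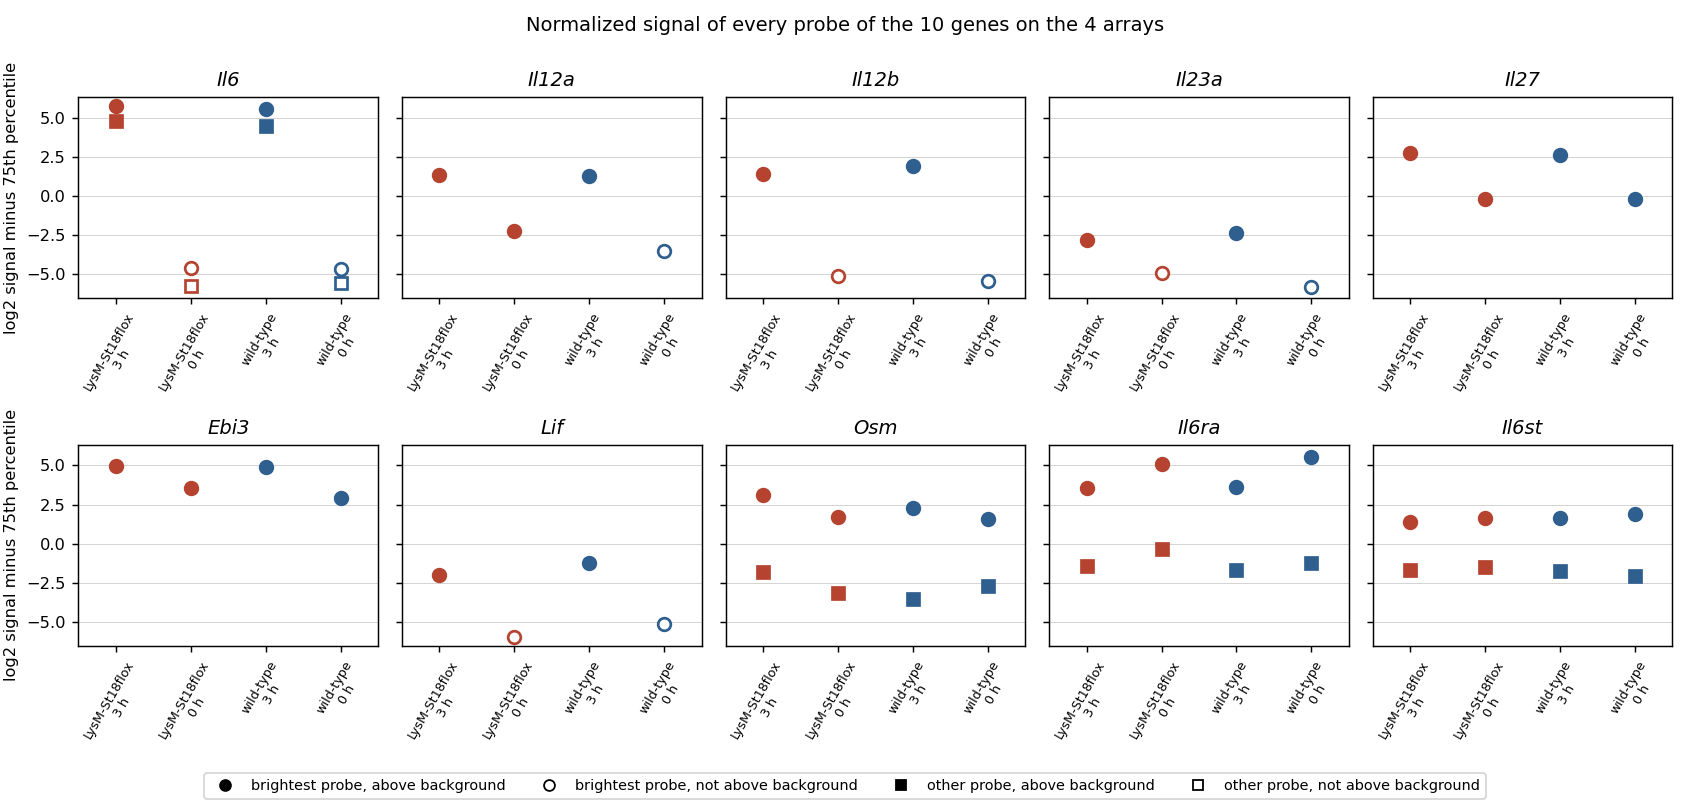
Each panel plots 1 gene, with the log2 signal minus the 75th percentile of the array on the vertical axis and the 4 arrays along the horizontal axis. Circles are the brightest probe, squares the other probe, and open symbols were not well above background. Il6, Il12b, Il23a and Lif were open at 0 h in both genotypes, and Il6ra was the member whose brightest probe stood lower at 3 h by over 2-fold. Heights of different probes are not comparable with each other.

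Il6, the gene of the prototype ligand of gp130, had the largest LPS bounds among the 10 genes. Its brightest probe was at 5.74 after LPS and -4.62 before it in LysM-St18flox cells, and at 5.56 after LPS and -4.67 before it in wild-type cells. Neither 0 h array was well above background, so the level after LPS was higher by at least 667-fold in LysM-St18flox cells and by at least 589-fold in wild-type cells. The second Il6 probe gave bounds of at least 352-fold in LysM-St18flox cells and at least 273-fold in wild-type cells. Both probes thus placed the 2 LPS arrays far above the 2 unstimulated arrays, with processed signals of 32400 in LysM-St18flox cells at 3 h and 24490 in wild-type cells at 3 h for the brighter probe, against 30.9 in LysM-St18flox cells at 0 h and 18.7 in wild-type cells at 0 h.

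Il12b, which encodes the p40 chain shared by IL-12 and IL-23, followed the same order of times. It was at 1.41 after LPS and -5.08 before it in LysM-St18flox cells, and at 1.93 after LPS and -5.40 before it in wild-type cells. The 3 h level exceeded the 0 h level by at least 33.1-fold in LysM-St18flox cells and by at least 47.5-fold in wild-type cells. The lower limit is set by background: without a background filter the differences were 6.49 in LysM-St18flox cells and 7.33 in wild-type cells.

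The partner chains of p40 differed in how much of their change was measurable. Il12a, the gene of p35, was at 1.32 after LPS and -2.20 before it in LysM-St18flox cells, and at 1.28 after LPS and -3.50 before it in wild-type cells. The last of these was not well above background. Il12a was 11.5-fold higher after LPS in LysM-St18flox cells, a difference exceeded by 0.855% of the measured genes, and higher by at least 27.4-fold in wild-type cells. Il23a, the gene of p19, was dim throughout, at -2.77 after LPS and -4.89 before it in LysM-St18flox cells, and at -2.38 after LPS and -5.82 before it in wild-type cells. Its bounds were at least 1.82-fold in LysM-St18flox cells, below the 2-fold limit, and at least 2.40-fold in wild-type cells. Its processed signals at 3 h were only 88.6 in LysM-St18flox cells and 99.9 in wild-type cells, against lowest well-above-background signals of 60.8 in LysM-St18flox cells and 38.0 in wild-type cells at 0 h. With normexp background correction the Il23a bound was 1.04 (log2) in LysM-St18flox cells and 0.87 in wild-type cells, so the order of the bounds turned. The bound in LysM-St18flox cells also passed 2-fold with median scaling (1.06) and quantile normalization (1.05), and the unfiltered difference was 2.11.

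The 2 chains of IL-27 were both measured on all 4 arrays. Il27, the gene of p28, was at 2.78 after LPS and -0.18 before it in LysM-St18flox cells, and at 2.66 after LPS and -0.18 before it in wild-type cells. Its log2 LPS difference was 2.96 in LysM-St18flox cells and 2.84 in wild-type cells, or 7.78-fold and 7.14-fold higher, and 1.49% and 1.69% of the measured genes of those comparisons exceeded it. Ebi3 had a high level already at 0 h: 4.99 after LPS and 3.53 before it in LysM-St18flox cells, and 4.87 after LPS and 2.95 before it in wild-type cells. Ebi3 was 2.74-fold higher after LPS in LysM-St18flox cells and 3.80-fold higher in wild-type cells. The 3 h levels of Ebi3 were 0.12 apart between the genotypes and the 0 h levels 0.59 apart, so the wider wild-type response goes with a lower wild-type 0 h level.

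Of the other single-chain gp130 ligands, Lif, the gene of leukemia inhibitory factor, was at -2.03 after LPS and -5.95 before it in LysM-St18flox cells. In wild-type cells Lif was at -1.23 after LPS and -5.15 before it. It was not well above background in either genotype at 0 h, and its bounds were at least 3.05-fold in LysM-St18flox cells and at least 5.32-fold in wild-type cells. Osm, the gene of oncostatin M, passed the 2-fold limit in LysM-St18flox cells and missed it in wild-type cells. Its brightest probe was at 3.08 after LPS and 1.72 before it in LysM-St18flox cells, 2.57-fold higher after LPS. In wild-type cells it was at 2.25 at 3 h and 1.55 at 0 h, 1.62-fold higher. The second, dimmer Osm probe was at -1.82 after LPS and -3.17 before it in LysM-St18flox cells (a difference of 1.34), and at -3.53 after LPS and -2.68 before it in wild-type cells (a difference of -0.86). The 2 Osm probes therefore gave one direction in LysM-St18flox cells and opposite directions in wild-type cells.

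The receptor genes did not follow the ligands. Il6ra, which encodes the chain that binds IL-6, was at 3.53 after LPS and 5.08 before it in LysM-St18flox cells, and at 3.60 after LPS and 5.52 before it in wild-type cells. It was 2.93-fold lower after LPS in LysM-St18flox cells (log2 -1.55) and 3.78-fold lower in wild-type cells (-1.92), and 2.81% and 1.97% of the measured genes of those comparisons lay below it. The second Il6ra probe gave -1.09 in LysM-St18flox cells and -0.46 in wild-type cells, on the same side of 0 and in wild-type cells within 2-fold. Il6st, which encodes gp130 itself, stayed within 2-fold: its brightest probe was at 1.36 after LPS and 1.63 before it in LysM-St18flox cells, and at 1.66 after LPS and 1.86 before it in wild-type cells. Those LPS differences were -0.27 in LysM-St18flox cells and -0.21 in wild-type cells, while the second probe gave -0.15 in LysM-St18flox cells and 0.29 in wild-type cells. Of the measured genes, 62.0% in LysM-St18flox cells and 75.7% in wild-type cells were at least as far from 0 as the brightest Il6st probe.

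**Figure D2:**
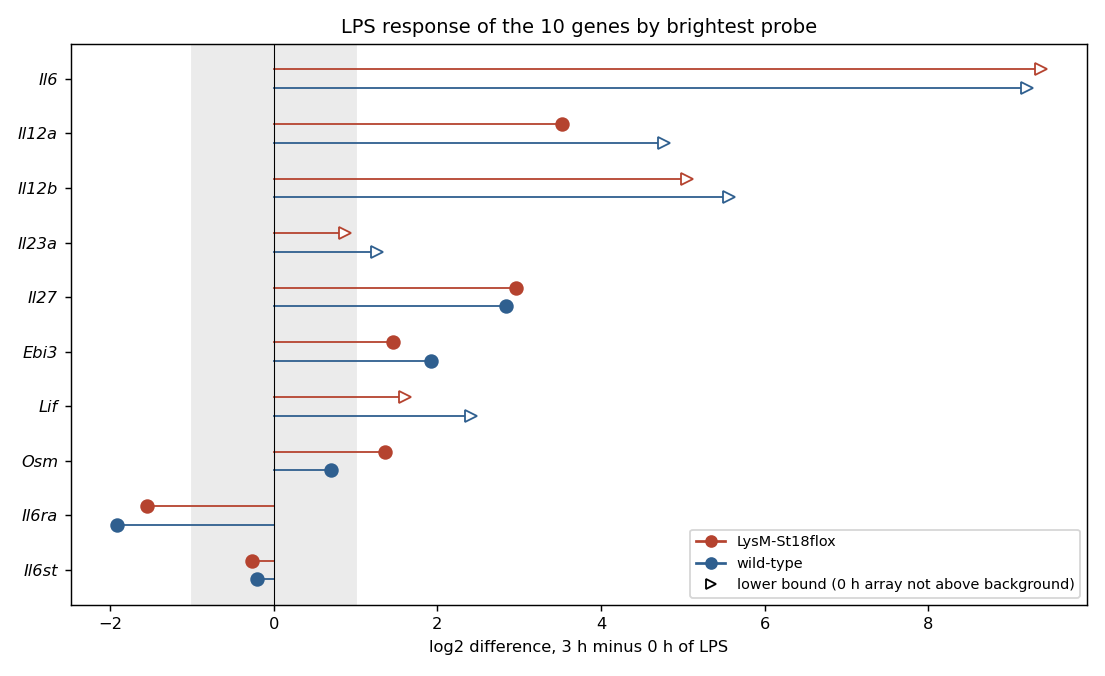
The horizontal axis is the log2 difference between 3 h and 0 h of LPS for the brightest probe of each gene, with LysM-St18flox cells above wild-type cells in each row. Filled circles are measured differences, open triangles are lower bounds, and the grey band covers differences under 2-fold. Il6 reaches at least 9.38 in LysM-St18flox cells and 9.20 in wild-type cells, Il6ra lies at -1.55 and -1.92, and Il6st lies inside the band in both.

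**Figure D3:**
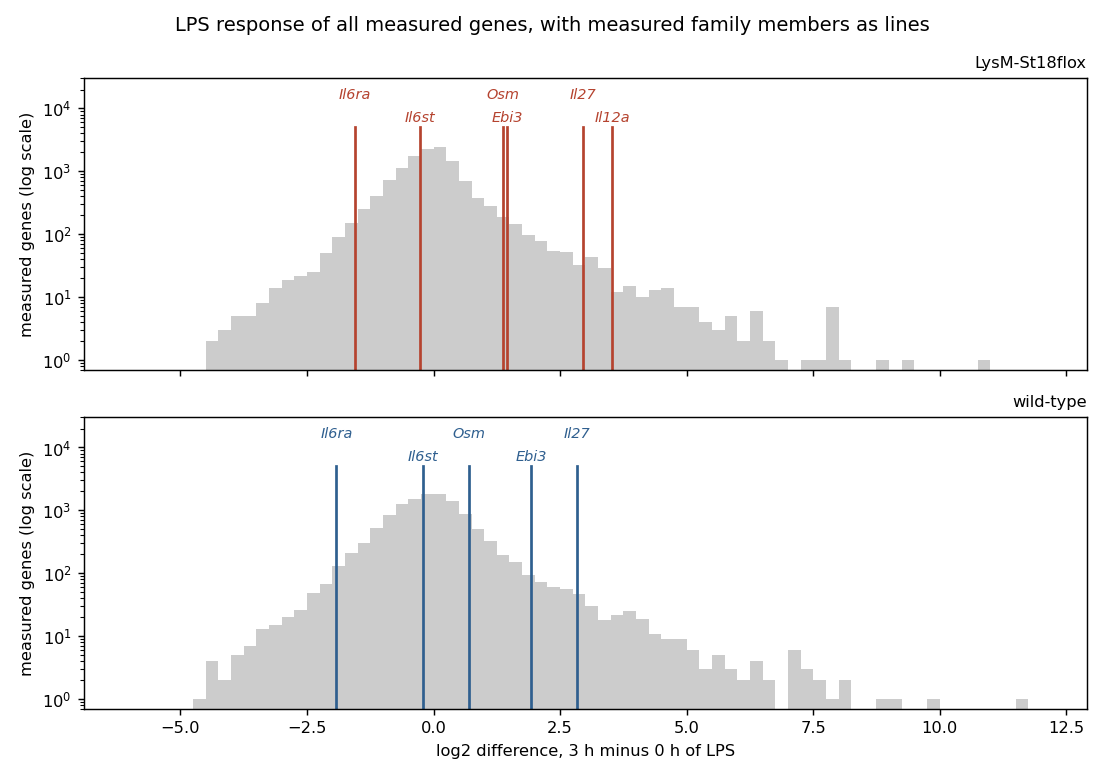
Grey bars count the measured genes in each interval of the log2 difference between 3 h and 0 h of LPS, on a log scale, for LysM-St18flox cells (above) and wild-type cells (below), and lines mark the measured family members. Il27 lies in the right tail, Il6ra in the left tail and Il6st in the body of both distributions, and Il12a in the right tail of the upper one. Genes with bounds, among them Il6, Il12b and, in wild-type cells, Il12a, are not drawn.

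For the 5 members measured on all 4 arrays, the LPS difference in LysM-St18flox cells minus that in wild-type cells stayed under 1 on the log2 scale. It was 0.66 for Osm, 0.37 for Il6ra, 0.12 for Il27, -0.06 for Il6st and -0.47 for Ebi3 by the brightest probe. None of these 5 was called in either direction, against 3.01% of 12344 measured genes in the higher and 2.36% in the lower direction. The second Osm probe gave 2.20, and the mean of both Osm probes 1.43. For Il12a, measured in LysM-St18flox cells and a lower bound in wild-type cells, the difference of the responses was at most -1.25, past 2-fold lower in LysM-St18flox cells. With normexp correction it was at most -0.51. The 3 h levels of Il12a were only 0.05 apart, so this value restates the genotype bound of 1.30 at 0 h and is no separate result. It rests on a wild-type 0 h signal of 42.0, not well above background. The all-gene shares above leave out bounds and do not apply to it. Both responses were bounds for Il6, Il12b, Il23a and Lif, so none is given for them.

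The genotype comparison asked whether the family differed between LysM-St18flox and wild-type cells at the same time of LPS. At 3 h all 10 genes were measured in both genotypes and none was 2-fold apart by its brightest probe, where 1.81% of 13049 measured genes were called higher and 1.40% lower. With bounds the shares were 3.08% and 3.15%. The member median was -0.01 and 5 members lay above and 5 below 0. Osm was highest at 0.83, and 4.75% of the measured genes were as far apart or farther. Lif was lowest at -0.80, with 5.07% as far apart, followed by Il12b at -0.52 (11.1%) and Il23a at -0.40 (18.0%). Il6st was at -0.29, Il6 at 0.18, Il27 and Ebi3 at 0.12, Il6ra at -0.07 and Il12a at 0.05. The processed signals of Lif at 3 h were 148 in LysM-St18flox cells and 221 in wild-type cells, so this difference rests on a dim probe. The second Osm probe was 3.27-fold higher in LysM-St18flox cells at 3 h, and the second Il6 probe was at 0.37.

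At 0 h only Il27, Ebi3, Osm, Il6ra and Il6st were measured in both genotypes, and none was 2-fold apart by its brightest probe, where 2.98% of 12679 measured genes were called higher and 3.15% lower. With median scaling the share of calls that were higher was 29.9%, against 48.6% here. Il12a was the 1 member called at 0 h, through a bound: LysM-St18flox cells exceeded wild-type cells by at least 2.46-fold, while 4.90% of genes measured or bounded were called higher and 4.42% lower. Its processed signal was 165 in LysM-St18flox cells and 42.0 in wild-type cells, and with normexp background correction the value was 0.59 on the log2 scale, under 2-fold. Ebi3 was at 0.59 (21.0% of the measured genes as far apart), Osm at 0.17, Il27 at -0.00, Il6st at -0.23 and Il6ra at -0.44. For Osm, Il6ra and Il6st the second probe lay on the other side of 0, at -0.49, 0.85 and 0.54. Il6, Il12b, Il23a and Lif were not well above background in either genotype at 0 h, so no genotype difference can be given for them there.

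Markers of other cells stood apart by genotype at both times, and their part in these differences was not tested. The counts below stand beside all-gene shares of 2.98% (higher) and 3.15% (lower) before LPS. After LPS those shares were 1.81% and 1.40%. Of 8 measured B cell markers, 6 were called higher in LysM-St18flox cells at each time, with medians of 2.68 at 0 h and 2.72 at 3 h. Not called were Pax5 (-0.27 at 0 h and -0.56 at 3 h) and Cd22 (-0.08 and 0.18). The summed level of the B cell markers was 30.3 at 3 h and 36.8 at 0 h in LysM-St18flox cells. In wild-type cells it was 6.98 at 3 h and 9.22 at 0 h. Erythroid markers were called higher for 4 of 4 measured genes at 0 h and 5 of 5 at 3 h (medians 2.95 and 3.28). Mast cell markers were higher for 3 of 5 at 0 h and 4 of 5 at 3 h (medians 1.34 and 1.53), with Kit at -0.25 and -0.07. Markers of large peritoneal macrophages were higher for 5 of 9 and 4 of 9 (medians 1.04 and 0.96). Among those not called were Gata6 (0.13 at 0 h and 0.59 at 3 h) and Timd4 (0.68 and 0.39). Eosinophil markers were higher for 3 of 4 at 0 h and 1 of 4 at 3 h (medians 1.14 and 0.84), with Ear6 at -0.93 at 0 h. T and NK cell markers were mixed, with 3 of 7 higher and 1 lower (Cd4, -1.05) at 0 h and 4 of 9 higher at 3 h (medians 0.78 and 0.71). Lower in LysM-St18flox cells by median were mesothelial and fibroblast markers, with 6 of 8 at least 2-fold lower at 0 h and 8 of 9 at 3 h (medians -1.19 and -1.51), and neutrophil markers, with 4 of 11 lower at 0 h and 3 of 10 at 3 h (medians -0.62 and -0.21). At 3 h 1 neutrophil marker, Retnlg, was called higher (1.11), and 4 neutrophil markers lay above 0 at each time. The macrophage marker medians were -0.26 at 0 h and -0.08 at 3 h, and those of dendritic cell markers 0.53 and 0.38. At 0 h 1 of 12 macrophage markers (Lyz2, 1.19) and 1 of 6 dendritic cell markers (Ccr7, 1.48) were called higher. Neither list had a call at 3 h, where Lyz2 was at -0.23 and Ccr7 at 0.21. Among defining markers, Cd8a, Ncr1, Epx, Prg2, Xcr1, Ms4a2 and Ngp were at background on all 4 arrays.

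**Figure D4:**
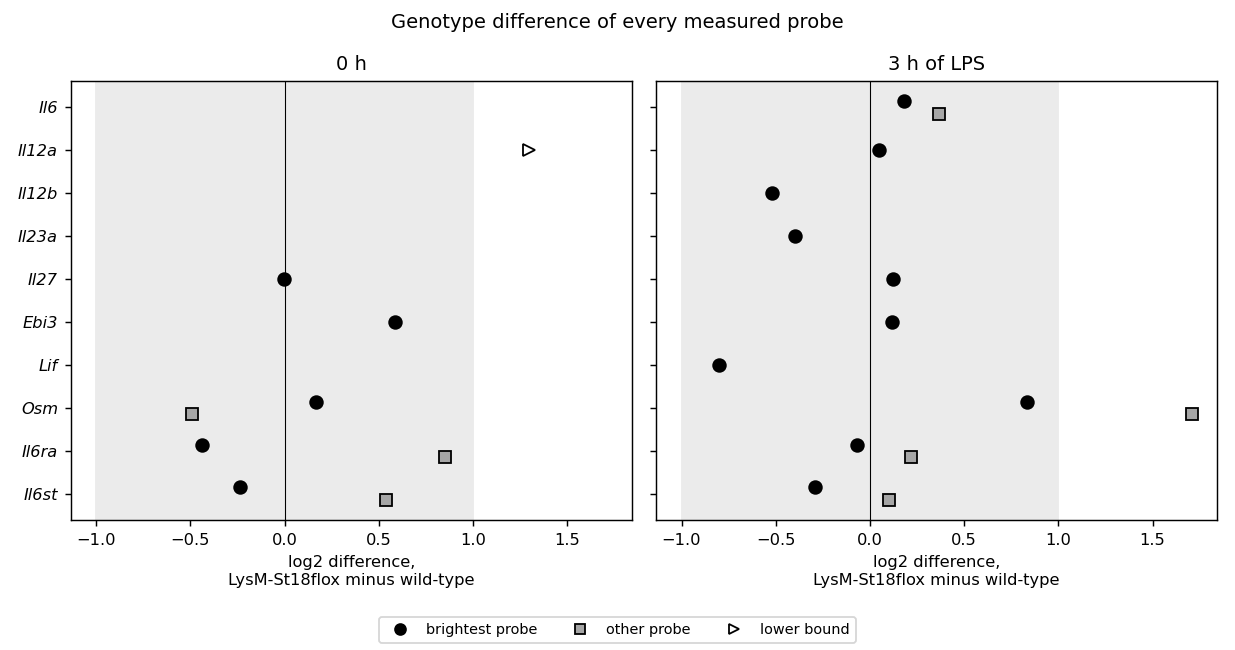
The horizontal axis is the log2 difference of LysM-St18flox minus wild-type cells, at 0 h on the left and after 3 h of LPS on the right, for every probe measured. Black circles are the brightest probe of a gene, grey squares the other probe, the open triangle is a lower bound, and the grey band covers differences under 2-fold. Every brightest probe with a measured difference lies inside the band, and the second Osm probe (1.71 at 3 h) and the Il12a bound (1.30 at 0 h) lie outside it.

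Other genes of the family and its receptors were mostly dim: of 15 such genes outside the 10, 7 were measured in the LPS comparison of LysM-St18flox cells and 6 in that of wild-type cells. Clcf1, the gene of a ligand of the CNTF receptor, was at 2.82 for LPS in LysM-St18flox cells and at a bound of 3.59 (log2) in wild-type cells. Osmr, the oncostatin M receptor gene, was higher by at least 2.34-fold in LysM-St18flox cells and by 2.21-fold in wild-type cells. Il11, another gp130 ligand gene, was higher by at least 3.22-fold in wild-type cells and not well above background in LysM-St18flox cells at either time. At 3 h Osmr was 2.32-fold lower in LysM-St18flox than in wild-type cells and Il11 at least 4.74-fold lower, and the mesothelial and fibroblast marker median stood at -1.51 beside them. Their relation was not tested. Il12rb1, a chain of the IL-12 and IL-23 receptors, was higher by at least 3.23-fold in LysM-St18flox cells at 3 h. Its relation to the cell markers was not tested. Cntfr, Ctf1, Il12rb2, Il23r and Il31 were at background on all 4 arrays.

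Downstream of the receptors, 3 of 11 JAK, STAT and adaptor genes were at least 2-fold higher after LPS in each genotype and none was lower, with Stat3 among the 3 in LysM-St18flox cells and Tyk2 in wild-type cells. The share of all measured genes called higher was 8.59% in LysM-St18flox cells and 9.46% in wild-type cells. Jak2, the gene of a kinase that associates with gp130, was at 3.68 in LysM-St18flox cells and 3.87 in wild-type cells. Stat3, the main STAT factor of gp130, was just past the 2-fold limit in LysM-St18flox cells and at 0.87 in wild-type cells, while its other probe gave 1.13 in LysM-St18flox cells and 1.58 in wild-type cells. Tyk2 was at 0.21 in LysM-St18flox cells and 1.20 in wild-type cells. A list drawn up for inhibitors of this signalling had 5 of 8 genes higher in each genotype. Whether each of these genes acts on gp130 or STAT3 was not tested. They were led by Cish at 6.99 in LysM-St18flox cells and 8.10 in wild-type cells, Socs1 at 6.42 and 5.83, and Socs3, which binds gp130, at 5.89 and 6.33. The phosphatase gene Ptpn6 was at -0.50 in LysM-St18flox cells and -1.14 in wild-type cells. Its other probes gave -0.33 and -0.43 in LysM-St18flox cells and 1.24 and -0.82 in wild-type cells. The list medians were 0.59 in LysM-St18flox cells and 0.54 in wild-type cells for receptor signalling and 1.60 and 1.27 for the inhibitors, beside the all-gene medians of -0.05 and -0.07.

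Among 24 genes of transcription factors known for control of Il6 or Il12b, 12 were called higher and 4 lower after LPS in LysM-St18flox cells. The counts in wild-type cells were 13 and 6. The all-gene shares were 8.59% called higher, with 8.11% lower, for LysM-St18flox cells, and 9.46% and 10.9% for wild-type cells. Nfkbiz, an atypical IkB protein needed for Il6 induction in mice, was at 5.89 in LysM-St18flox cells and 5.91 in wild-type cells, and Irf1 at 3.86 and 3.93. Bcl3 was at 3.10 in LysM-St18flox cells and 3.97 in wild-type cells, and Nfkb1, the gene of the p50 subunit of NF-kB, at 2.70 and 4.00. Cebpa was lowest, at -4.05 in LysM-St18flox cells and -3.81 in wild-type cells, followed by Jun at -2.31 and -2.71. Ppard was at -1.76 in LysM-St18flox cells and -2.43 in wild-type cells, and Fos at -1.75 and -2.29. Irf8, a factor known for Il12b, was at 0.10 in LysM-St18flox cells and -1.56 in wild-type cells.

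A list drawn up for the stability of Il6 mRNA and related transcripts had 5 of 11 genes higher and 1 lower in each genotype. Of all measured genes, 8.59% were called higher in LysM-St18flox cells and 9.46% in wild-type cells. The share lower is near that of all measured genes (8.11% in LysM-St18flox cells and 10.9% in wild-type cells). Arid5a, which stabilises Il6 mRNA, was at 3.40 in LysM-St18flox cells and 3.81 in wild-type cells, and Zc3h12c at 3.29 and 3.74. Zc3h12a, the gene of Regnase-1, which degrades Il6 and Il12b mRNA, was at 2.65 in LysM-St18flox cells and 3.18 in wild-type cells, while Tnip1, whose product restrains NF-kB and is not a factor of mRNA stability, was at 3.15 and 3.86 and counts among the 5. Zfp36l2 was lower, at -2.26 in LysM-St18flox cells and -2.66 in wild-type cells. Of 5 genes of receptor shedding and processing, 2 were higher in LysM-St18flox cells and 3 in wild-type cells. The all-gene shares called higher were again 8.59% and 9.46%. Rhbdf2, a partner of the protease ADAM17 that sheds the IL-6 receptor, was at 2.23 in LysM-St18flox cells and 1.69 in wild-type cells, Rhbdf1 at 1.92 and 2.52, and Adam17 at 0.79 and 1.15.

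**Figure D5:**
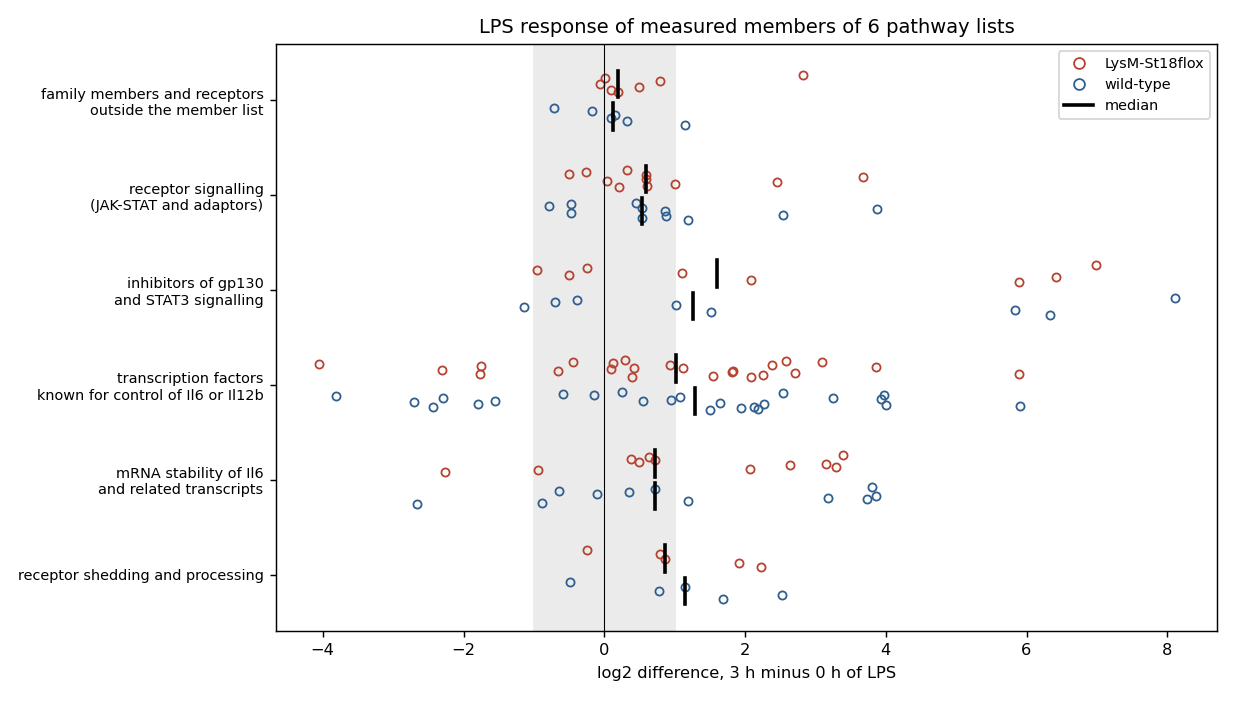
Each open circle is 1 measured gene, placed by its log2 difference between 3 h and 0 h of LPS, in rows for 6 gene lists with LysM-St18flox cells above wild-type cells, and black bars are medians. The median of the inhibitors is 1.60 in LysM-St18flox cells and 1.27 in wild-type cells, and the transcription factor list spreads from -4.05 to 5.89 in LysM-St18flox cells. The grey band covers differences under 2-fold.

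The genes most like each member measured on all 4 arrays were sought among 11591 genes, by the root mean square (RMS) difference of the 4 levels after subtracting each gene's own mean. Nearest to Il27 were Stat2 and Slfn9 (RMS 0.04 each) and Filip1l (0.06). Nearest to Ebi3 were H3c4 (0.06), Aen (0.07) and Cox18 (0.07), and nearest to Osm were Hectd2 (0.08), Serpinb9 (0.08) and Tyro3 (0.09). Etl4, Nuak2 and Dennd4c (0.06 each) were nearest to Il6ra. For Il6st, whose levels spanned 0.50, they were Dnajc14, Bcl2l13 and Pisd (0.01 each). With 4 points that share arrays this likeness is a description, and for a flat gene such as Il6st many genes come close.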

How the data were processed

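Per the file headers, the deposited intensity values of spots came from Agilent Feature Extraction, version 11.0.1.1: processed signals of single-colour Cy3 arrays after background subtraction and spatial detrending, not normalized between arrays. A deposited table of log2 values, with no stated normalization, lists 25482 probes. Its 4 columns hold the same sorted values to within 0.00036 and correlate with their own array at 0.99994 or more. It lists 8 of the 14 probes of the family.

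Log2 processed signals were averaged over the spots of a probe, leaving out control spots and spots with outlier flags, and the 75th percentile over probes was subtracted. No spot was saturated. Accessions without versions were matched to the RefSeq gene table of GRCm38.p6: 32994 of 35886 RefSeq probes had 1 symbol, and 23611 of all probes had none here. The file headers name another build, so no probe coordinates are given. The promoter table of RefSeq gave sequences with its own build. A gene was its brightest probe over the 4 arrays. Named genes were all 10 members, St18, up to 4 list genes per direction, and the 3 genes most like each member. A few more list genes were named after their values were seen: Irf8, Il12rb1, the markers named and the genes at background. Some genes of the lists are not reported here.

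All 4 arrays lay on 1 slide and share 1 scan time, per the file headers. Members, lists, comparisons and alternatives were chosen with earlier results of these data known. Python 3.11.15, pandas 2.3.3, numpy 2.4.6 and, for normexp (median signals, offset 50) and quantile normalization, limma 3.58.1 in R 4.3.3 were used. The computation of differences and bounds was checked on simulated arrays with known changes, spot noise only and a single background limit. That check does not cover the spread between mice, cultures or labelling.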

Additional observations from a re-analysis of the deposited data

Results flagged for a closer look

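The dimmer probes of Osm and Il6st had LPS differences of opposite sign in the genotypes, with 1 array a group and no test of that difference. The dimmer Osm probe was at 1.34 in LysM-St18flox cells and -0.86 in wild-type cells. The dimmer Il6st probe was at -0.15 in LysM-St18flox cells and 0.29 in wild-type cells, both under 2-fold. The brightest probe of each gene had the same sign in both genotypes. The processed signals behind the Osm values were 171 at 3 h and 84.3 at 0 h in LysM-St18flox cells, and 44.8 at 3 h and 74.1 at 0 h in wild-type cells.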

How the results depend on the processing

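Each group had 1 array, so no array could be left out. No paired analysis was possible because no replicate was repeated across groups. Of 8 other ways of processing, 1, the 75th percentile over spots, was chosen after seeing the data. From the deposited values, 3 members were at least 2-fold higher after LPS in LysM-St18flox cells and 2 in wild-type cells, against 7 in each here, since it lists none of the probes of Il6, Il12a, Il12b, Il23a and Lif. The 1 member higher at 0 h between genotypes (Il12a) became 0 with normexp correction, and 0 in the deposited table. With the mean of all measured probes 1 member (Osm) was higher between genotypes at 3 h (1.27) and in the difference of the LPS responses (1.43), against 0 here. The bound of Il12a in that difference (at most -1.25) was at most -0.51 with normexp correction and -1.09 or below under the other 5 that give one. Without a background filter 2 members (Il12a and Il23a) were lower in the difference of the LPS responses (-1.25 and -1.33), against 0. Other counts of called members stayed within 1.5 times, Il6ra being lower under all 8 in both genotypes. Among all genes at least 2-fold apart, removing the background filter gave, for LPS in LysM-St18flox cells, 1925 higher and 2064 lower (1114 and 1053 here), and in wild-type cells 2292 and 2626 (1191 and 1369). Between genotypes it gave 1461 and 1377 at 0 h (378 and 399 here) and 991 and 1040 at 3 h (236 and 183), and 1715 and 1855 for the difference of the responses (372 and 291). Normexp gave 231 and 251 at 0 h, 137 and 96 at 3 h, and 218 and 166 for the difference of the responses. Median scaling gave 678 lower at 0 h and 587 higher for the difference of the responses, where 73.8% of calls were higher against 56.1%. The deposited table gave 119 lower at 3 h. Among the lists, genes of the family outside the 10 called higher after LPS numbered 3 with the filter removed and 0 in the deposited table in LysM-St18flox cells (1 here), and 4 and 0 in wild-type cells, 0 with normexp (1 here), with 2 lower there without the filter (0 here). In wild-type cells 1 receptor signalling gene was lower with quantile normalization and in the deposited table (0 here), and no inhibitor was lower with the mean of probes (1 here). Genes of mRNA stability called lower were 2 with quantile normalization and in the deposited table in both genotypes, and with the mean of probes in wild-type cells (1 here). The cause was not tested. Signal over background limits the 0 h levels of Il6, Il12b, Il23a and Lif, which are bounds.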
